A study of Rattus norvegicus with 4 samples.

Results

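The genes of cholesterol and fatty acid synthesis were followed in lumbar dorsal root ganglia (DRGs) of young rats given vehicle or cisplatin. The group was defined as the protein-coding rows of the gene table that carry 1 of 35 gene names. These names matched 36 rows, because Elovl6 has 2 gene models, out of 22293 protein-coding genes and 33506 genes in all. All 36 rows were among the 14719 protein-coding genes that passed the filter on low counts.

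Whole DRGs, which hold sensory neurons, satellite glia, Schwann cells of the intraganglionic axons and other cells, were sequenced as 4 poly(A)-selected libraries, 2 for vehicle and 2 for cisplatin. All rats were neonatal Wistar rats labelled as wild type (WT). The control group received phosphate-buffered saline (PBS) as vehicle, and the other group received cisplatin, a platinum-based chemotherapeutic, at 0.3 mg/kg by intraperitoneal injection on P14 and P16. Several lumbar DRGs were pooled for each library. Tissue was taken at P23 by the study's methods, whereas the labels place it 16 days post-treatment. Rats of both sexes entered the study, and the sex in each library is not given in the sources used here. By the numbers in their labels, the libraries are called vehicle replicates 1 and 2 and cisplatin replicates 1 and 2 below.

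Cells build cholesterol from acetyl-CoA through the mevalonate pathway, which ends in farnesyl pyrophosphate, and then through squalene and lanosterol. Fatty acids are built from the same acetyl-CoA by acetyl-CoA carboxylase and fatty acid synthase and are then desaturated and elongated. Both routes are switched on by the SREBP transcription factors, which are escorted by SCAP and held back by the INSIG proteins when sterols are plentiful. In peripheral nerve the routes are best known in Schwann cells, which make much of the cholesterol and long-chain lipid of their own myelin.

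The promoters of these genes classically combine a sterol regulatory element, bound by SREBP, with a CCAAT box, bound by NF-Y, and a GC box, bound by Sp1. RefSeq promoter sequences of the GRCr8 assembly were matched to 28 of the 35 genes. The 7 without one were Pmvk, Fdft1, Sqle, Stard4, Acaca, Fasn and Elovl6. Within the 250 bases before the start of the gene, searched on both strands, CCAAT (read as ATTGG on the other strand) was found in 22 of the 28 (78.6%), against 34% of all 33469 rat promoters and 34.2% of the 11854 promoters of tested genes. GGGCGG (read as CCGCCC) was found in 21 of the 28 (75%), against 30.5% of all promoters and 55.4% of those of tested genes. The E-box CACGTG was found in 4 (14.3%), against 5.59% and 7.59%. The sterol regulatory element searched as TCACNCCAC was in 0 of the 28, against 0.974% of all promoters. With its last base left open, TCACNCCA, a form searched after the first result was seen, it was in Msmo1 and Srebf2 (7.14%, against 3.24% and 2.86%).

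Promoters of 5 genes are shown, chosen after their values were seen. They are the 2 with the highest levels (Scd2 and Hmgcs1), 2 whose levels were lower in both cisplatin libraries (Lss and Srebf2), and Nsdhl. CCAAT was found 5 times in Nsdhl and also 5 times in Mvk, which is not shown. The sequences run 5′ to 3′ on the gene's strand in GRCr8, and capitals mark the CCAAT box, the GC box and the open form of the sterol regulatory element on either strand.
Scd2 (chr1:253118127-253118376, plus strand): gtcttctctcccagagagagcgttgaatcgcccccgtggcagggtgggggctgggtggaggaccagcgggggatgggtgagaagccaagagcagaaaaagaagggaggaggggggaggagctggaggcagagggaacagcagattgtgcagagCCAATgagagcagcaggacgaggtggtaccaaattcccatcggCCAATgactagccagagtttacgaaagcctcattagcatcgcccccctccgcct
Hmgcs1 (chr2:53382054-53382303, plus strand): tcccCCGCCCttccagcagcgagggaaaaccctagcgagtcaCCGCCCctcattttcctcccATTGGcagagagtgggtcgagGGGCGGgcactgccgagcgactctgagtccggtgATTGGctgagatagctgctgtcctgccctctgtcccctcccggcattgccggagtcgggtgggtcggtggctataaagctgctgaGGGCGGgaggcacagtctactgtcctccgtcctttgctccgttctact
Lss (chr20:12118231-12118480, minus strand): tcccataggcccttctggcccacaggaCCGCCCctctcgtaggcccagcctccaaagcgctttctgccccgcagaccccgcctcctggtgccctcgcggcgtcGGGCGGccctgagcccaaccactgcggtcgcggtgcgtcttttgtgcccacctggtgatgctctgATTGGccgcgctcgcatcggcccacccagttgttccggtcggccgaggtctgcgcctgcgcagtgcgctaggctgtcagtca
Srebf2 (chr7:115543057-115543306, plus strand): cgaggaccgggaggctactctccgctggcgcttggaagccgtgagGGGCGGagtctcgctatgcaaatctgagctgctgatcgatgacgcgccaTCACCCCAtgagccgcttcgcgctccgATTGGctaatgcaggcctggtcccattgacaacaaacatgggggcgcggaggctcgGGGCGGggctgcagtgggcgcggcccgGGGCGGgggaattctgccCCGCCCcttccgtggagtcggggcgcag
Nsdhl (chrX:155817110-155817359, plus strand): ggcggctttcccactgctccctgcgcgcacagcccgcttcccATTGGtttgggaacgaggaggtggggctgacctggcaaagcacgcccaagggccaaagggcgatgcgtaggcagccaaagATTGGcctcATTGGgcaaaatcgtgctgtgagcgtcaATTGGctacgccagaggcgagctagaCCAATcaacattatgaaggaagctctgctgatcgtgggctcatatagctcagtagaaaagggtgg
A match in these windows is a description of the letters and not of binding in the DRG.

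Each library held 21384801 to 25618417 counts, and the closest pair of libraries, vehicle replicate 2 and cisplatin replicate 2, differed by more than sampling noise (chi-square of 46.5 per degree of freedom). Levels are given below as CPM (counts scaled to library size), normalised with TMM, and comparisons between genes use the deposited FPKM values, which are per gene length. The synthesis genes took 1.80% and 2.31% of all protein-coding counts in the vehicle libraries and 1.13% and 1.91% in the cisplatin libraries. A single desaturase, Scd2, made up 38.6% to 50.3% of that share.

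The synthesis genes were well expressed in the DRG. The median of their mean FPKM over the 4 libraries was 61, against 7.60 over all genes tested. Scd2, which introduces the double bond of monounsaturated fatty acids, was highest at a mean of 1646 FPKM (range 826 to 2374). Hmgcs1, the cytosolic HMG-CoA synthase, followed at 637 FPKM (352 to 884), then the C4-methylsterol oxidase Msmo1 at 274 FPKM (171 to 378). At the low end of the order stood Insig2 at 7.61 FPKM, Acacb, the mitochondria-associated acetyl-CoA carboxylase, at 1.18 FPKM, and the 2 Elovl6 models at 0.845 and 0.366 FPKM. Neighbours in this order overlapped in their range over the 4 libraries, except at 3 steps: between Scap and Srebf1, between Insig2 and Acacb, and between the 2 Elovl6 models. Levels per kilobase from TMM-normalised counts gave the same rank to all 36. They differ from FPKM only in the scaling of each library, so this was nearly fixed beforehand.

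**Figure D1:**
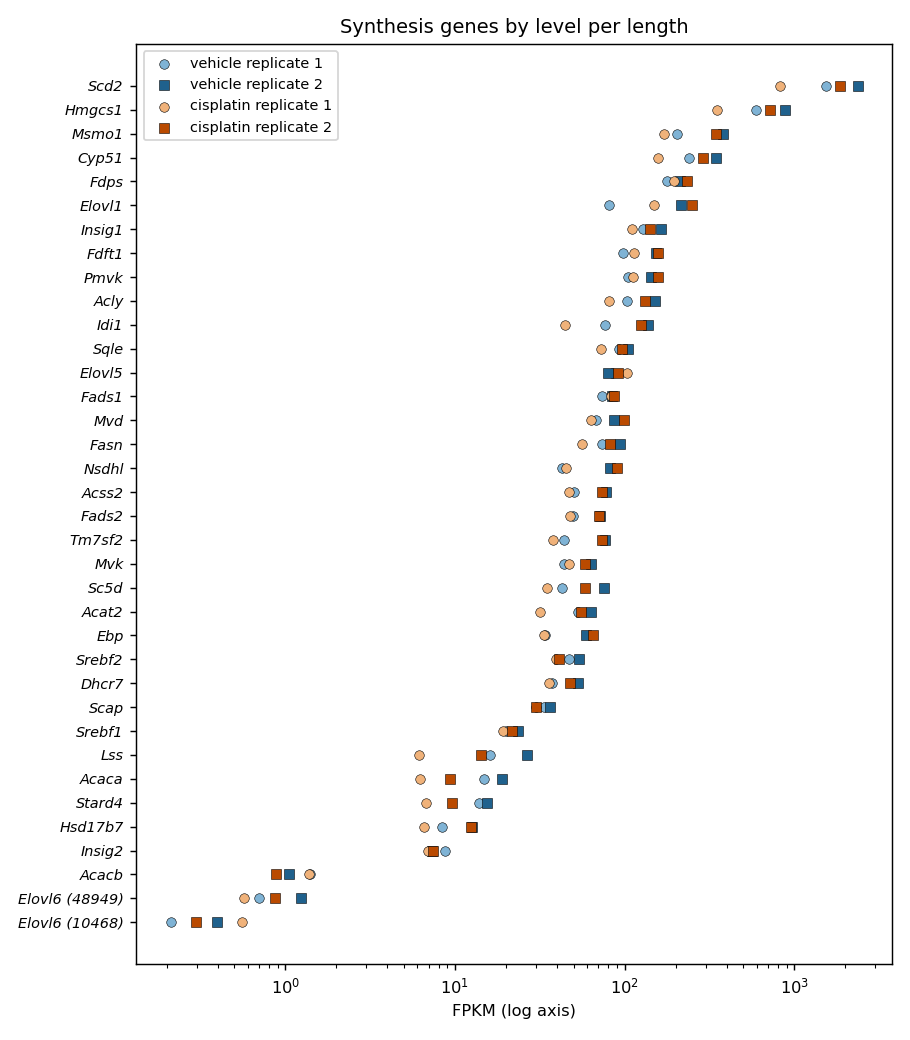
Deposited FPKM (log axis) of the 36 synthesis gene rows, ordered by their mean over 4 libraries, with each library as a point (blue for vehicle, orange for cisplatin, circles for replicate 1, squares for replicate 2). Scd2 lies highest at a mean of 1646 FPKM and the second Elovl6 model lowest at 0.366 FPKM.

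Paralogues differed in level by a steady or a variable margin. Srebf2, the SREBP mainly tied to sterol genes, was 1.89 to 2.37 times Srebf1 in FPKM across the libraries. Insig1 was 14.7 to 22.4 times Insig2. Acaca, the cytosolic acetyl-CoA carboxylase, was 10.6 and 18.0 times Acacb in the vehicle libraries and 4.53 and 10.6 times in the cisplatin libraries. Elovl1 ran from 0.949 to 2.75 times its paralogue Elovl5.

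The main comparison asked whether these genes differed between cisplatin-treated and age-matched vehicle-treated rats. No synthesis gene passed the test: edgeR's quasi-likelihood test with Benjamini-Hochberg adjustment over 14719 genes called 0 of 36 rows higher and 0 lower at an adjusted p under 0.05 and 1.5-fold (background 0% higher and 0.00679% lower, 1 gene). DESeq2 also called 0 in either direction (background 0.238% and 0.414%). At an unadjusted p under 0.05 and 1.5-fold, edgeR gave 0 higher and 2 lower, Acaca and Stard4 (background 2.80% higher and 5.32% lower), and DESeq2 gave 0 higher and 3 lower (background 2.91% and 5.42%). The log2 fold change was negative in 26 of 36 rows and positive in 10, where 50.9% of all genes tested were negative and 49.1% positive. Its median was -0.16, against -0.01 over all genes tested. The share of mitochondrially encoded genes in protein-coding counts separated the groups too, at 1.5% and 2.57% in vehicle and 5.50% and 4.78% in cisplatin, and its part in these differences was not tested. That median rested on single libraries: it was 0.03 without cisplatin replicate 1 and 0.13 without vehicle replicate 2, but -0.46 without cisplatin replicate 2 and -0.36 without vehicle replicate 1. The smallest p that exact two-sided permutation of 2 against 2 libraries allows is 0.333, and the edgeR p-values therefore depend on sharing the spread over all genes.

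**Figure D2:**
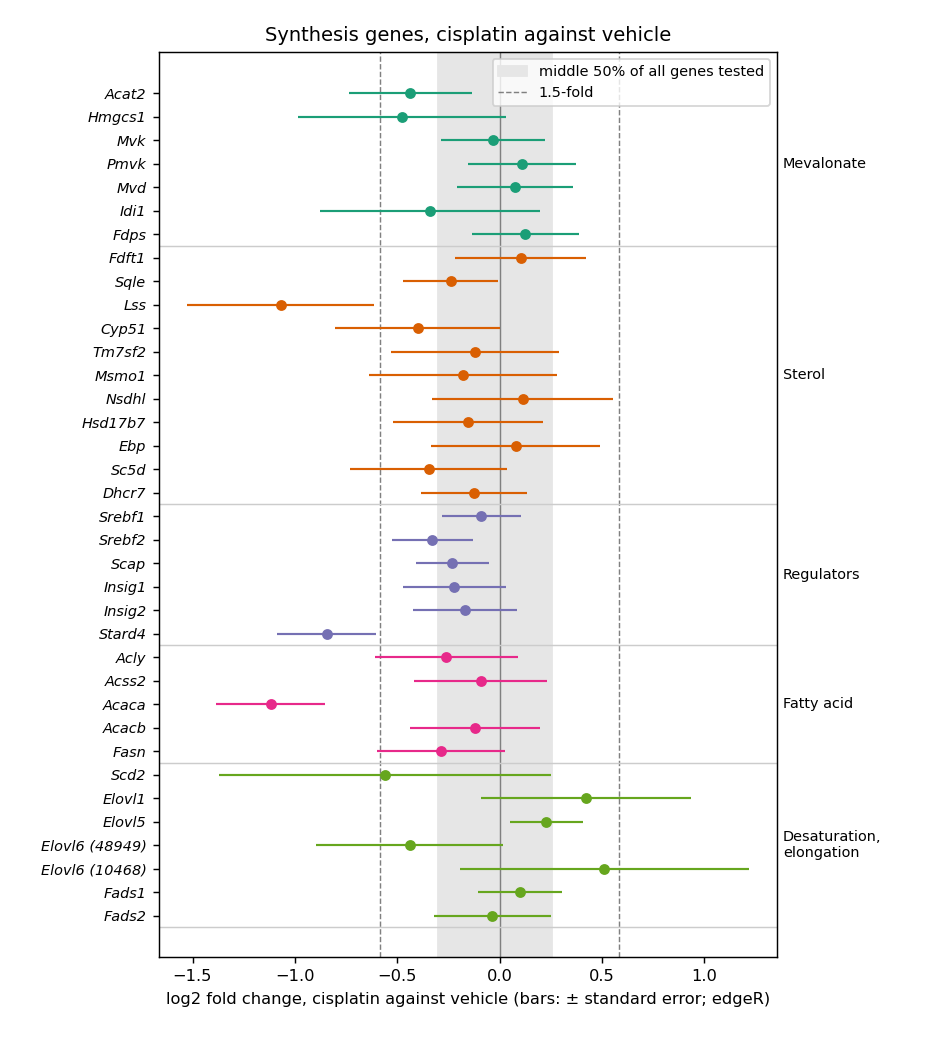
Log2 fold change of each synthesis gene row, cisplatin against vehicle (points, with the standard error from edgeR as bars), grouped by role, with the middle 50% of all genes tested shaded and 1.5-fold marked by dashed lines. Acaca (-1.12), Lss (-1.07) and Stard4 (-0.85, at more than 1.5-fold) lie farthest to the left, and 0 rows passed an adjusted p of 0.05.

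The 7 genes of the mevalonate pathway lay close to the middle of all genes in the main comparison, with a median log2 fold change of -0.03. Of these, 3 were positive and 4 negative, and 0 passed the test. The median was 0.24 without cisplatin replicate 1 and 0.27 without vehicle replicate 2, but -0.27 without vehicle replicate 1 and -0.29 without cisplatin replicate 2. All 7 overlapped between the groups. Hmgcs1, which condenses acetyl-CoA with acetoacetyl-CoA, was at 1954 and 2935 CPM in vehicle replicates 1 and 2 and at 1158 and 2359 CPM in cisplatin replicates 1 and 2. Cisplatin replicate 1 was lowest, and cisplatin replicate 2 lay between the vehicle libraries (log2 fold change -0.48 ± 0.51 SE, adjusted p = 0.768). Fdps, the farnesyl pyrophosphate synthase, was at 547 and 659 CPM in vehicle and 598 and 718 CPM in cisplatin, the largest positive value of the pathway (0.13 ± 0.26 SE, adjusted p = 0.891). Idi1, which isomerises isopentenyl pyrophosphate, was at 221 and 395 CPM in vehicle and 127 and 360 CPM in cisplatin (-0.34 ± 0.54 SE, adjusted p = 0.855). Here the gap between the cisplatin replicates was wider than the gap between the groups. Acat2, the cytosolic thiolase, was at 111 and 133 CPM in vehicle and 66.2 and 115 CPM in cisplatin. The kinases Mvk and Pmvk and the decarboxylase Mvd had log2 fold changes of -0.03, 0.11 and 0.07. Reads of Acat2 are uncertain, since 3 further gene models carry its protein name, and Idi1 overlaps Wdr37 on the other strand.

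From squalene to cholesterol, 8 of 11 genes had a negative log2 fold change and 3 a positive one (median -0.15), and 0 passed the test. This median was 0.25 without cisplatin replicate 1 and 0.17 without vehicle replicate 2, but -0.40 without vehicle replicate 1 and -0.68 without cisplatin replicate 2. Lss, the lanosterol synthase that closes the sterol rings (chr20:12842884-12870497 in the deposited table), was at 73.9 and 124 CPM in vehicle and 28.4 and 65.8 CPM in cisplatin. Both cisplatin libraries were below both vehicle libraries (log2 fold change -1.07 ± 0.46 SE, adjusted p = 0.519 by edgeR and 0.355 by DESeq2). With a library left out its log2 fold change ran from -1.80 to -0.58. Cyp51, the lanosterol demethylase, was at 817 and 1192 CPM in vehicle and 538 and 984 CPM in cisplatin (-0.40 ± 0.40 SE), and the groups overlapped. Msmo1 was at 382 and 721 CPM in vehicle and 324 and 650 CPM in cisplatin (-0.18 ± 0.46 SE). Nsdhl, a sterol dehydrogenase, was at 130 and 252 CPM in vehicle and 138 and 274 CPM in cisplatin (0.11 ± 0.44 SE). In both genes the second replicate of each group stood far above the first, while the groups overlapped. The remaining 7 genes overlapped too: the squalene enzymes Fdft1 (0.10) and Sqle (-0.24), the later sterol enzymes Tm7sf2 (-0.12), Hsd17b7 (-0.15), Ebp (0.08) and Sc5d (-0.35), and Dhcr7 (-0.13), which makes cholesterol from 7-dehydrocholesterol. Tm7sf2 overlaps Vps51 on the same strand, so its reads are uncertain.

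Among the 6 regulators, all log2 fold changes were negative, with a median of -0.23, and 0 passed the test. Stard4, a carrier that moves cholesterol between membranes (chr18:25984638-25997555), was at 38.0 and 42.6 CPM in vehicle and 18.5 and 26.4 CPM in cisplatin. Both cisplatin libraries were below both vehicle libraries (-0.85 ± 0.24 SE, adjusted p = 0.509 by edgeR and 0.258 by DESeq2), and its log2 fold change ran from -1.12 to -0.60 with a library left out. Srebf2 was at 241 and 277 CPM in vehicle and 202 and 211 CPM in cisplatin, again without overlap (-0.33 ± 0.20 SE, adjusted p = 0.60). Scap, the escort of the SREBPs, was at 147 and 161 CPM in vehicle and 131 and 131 CPM in cisplatin, without overlap (-0.23 ± 0.18 SE, adjusted p = 0.678). The other 3 overlapped between the groups. Srebf1 was at 90.0 and 107 CPM in vehicle and 86.9 and 98.7 CPM in cisplatin, and it shares its locus with Rai1 on the other strand. Insig1 was at 317 and 411 CPM in vehicle and 275 and 349 CPM in cisplatin. Insig2 was low throughout, at 7.01 to 8.83 CPM.

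The 5 genes of fatty acid synthesis were also all negative, with a median log2 fold change of -0.26, and 0 passed the test. The median was -0.03 without cisplatin replicate 1, -0.09 without vehicle replicate 2, -0.44 without vehicle replicate 1 and -0.58 without cisplatin replicate 2. Acaca, the carboxylase that makes malonyl-CoA (chr10:71536533-71719910), had the largest difference of all synthesis genes. It was at 102 and 133 CPM in vehicle and 43.3 and 64.7 CPM in cisplatin, on 2557, 2610, 1101 and 1523 counts, and both cisplatin libraries were below both vehicle libraries. Its level in cisplatin was 0.460 of that in vehicle (log2 fold change -1.12 ± 0.27 SE, adjusted p = 0.509 by edgeR and 0.0588 by DESeq2). With a library left out the log2 fold change ran from -1.44 to -0.85. The next step did not show a gap of that kind: Fasn, the fatty acid synthase, was at 688 and 886 CPM in vehicle and 527 and 764 CPM in cisplatin, and the groups overlapped (-0.29 ± 0.31 SE, adjusted p = 0.775). Acly, which supplies cytosolic acetyl-CoA from citrate, was at 454 and 676 CPM in vehicle and 358 and 584 CPM in cisplatin (-0.26 ± 0.35 SE). Acss2, which makes acetyl-CoA from acetate, was at 147 and 230 CPM in vehicle and 137 and 216 CPM in cisplatin (-0.09 ± 0.33 SE). Acacb was at 13.1 and 10 CPM in vehicle and 13 and 8.29 CPM in cisplatin.

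Longer genes had lower fold changes across the whole table: Spearman's rho between log2 fold change and gene length was -0.36 over 14719 genes and -0.50 over the 36 synthesis rows, a description across genes that share the same 4 libraries. The median length was 2371 bases for all genes tested and 2839 bases for the synthesis rows. With a correction for length, Acaca was at -0.83, Fasn turned to 0.08 and Acacb to 0.27, and the median of the fatty acid genes moved to -0.03. The median of the mevalonate genes moved the other way, from -0.03 to -0.20. Those of the sterol genes, the regulators and the desaturases and elongases were then -0.125, -0.17 and 0.04. The median of all synthesis rows was -0.12 with the correction, against 0.01 for all genes tested. The part of length in these differences was not tested.

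The desaturases and elongases were the only role group with a positive median log2 fold change (0.10, with 4 of 7 rows positive and 3 negative), and it was -0.11 without vehicle replicate 1 and 0.005 to 0.21 with another library left out. None of the 7 rows passed edgeR's adjusted threshold or an unadjusted p of 0.05 with 1.5-fold. Scd2 was at 7928 and 12360 CPM in vehicle and 4261 and 9505 CPM in cisplatin. Cisplatin replicate 1 was lowest and vehicle replicate 2 highest, and the groups overlapped (-0.56 ± 0.81 SE, adjusted p = 0.837). Elovl1, an elongase of very long-chain saturated fatty acids, was at 132 and 357 CPM in vehicle and 246 and 411 CPM in cisplatin (0.42 ± 0.51 SE, adjusted p = 0.798). It overlapped too, with vehicle replicate 1 well below the other libraries, and its log2 fold change was -0.11 without that library. Elovl5, an elongase of polyunsaturated fatty acids, was the one synthesis gene at a higher level in both cisplatin libraries, at 95.4 and 91.4 CPM in vehicle and 117 and 102 CPM in cisplatin (0.23 ± 0.18 SE, adjusted p = 0.686). The front-end desaturases Fads1 and Fads2, which act on polyunsaturated fatty acids, had log2 fold changes of 0.10 and -0.04. Of the Elovl6 models, the one on the plus strand of chromosome 2 was at 1.80 and 3.20 CPM in vehicle and 1.46 and 2.21 CPM in cisplatin (-0.44 ± 0.46 SE). The one on the minus strand had only 6 and 9 counts in vehicle and 16 and 8 counts in cisplatin (0.51 ± 0.71 SE). The 2 models carry the same protein name, so reads may be split between them.

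**Figure D3:**
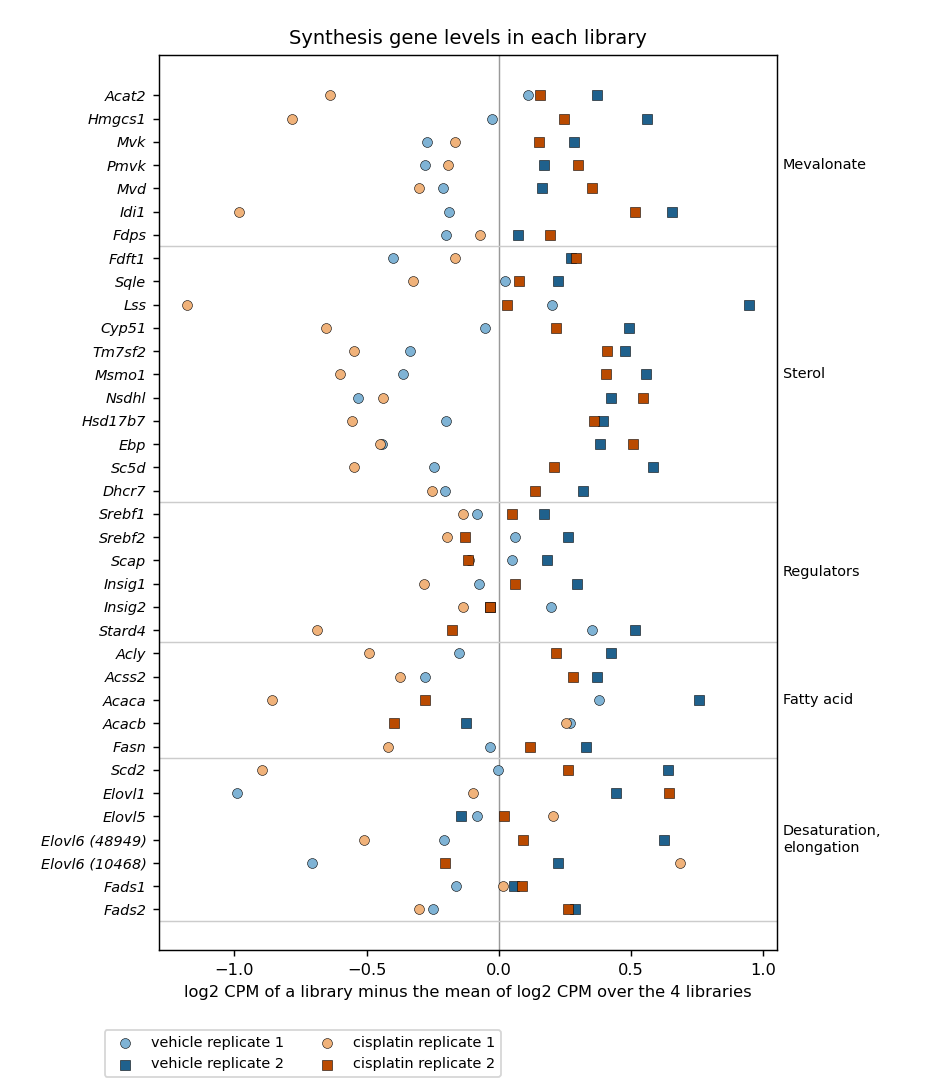
Level of each synthesis gene row in each library, as log2 CPM minus the mean of log2 CPM over the 4 libraries (x axis), with blue for vehicle, orange for cisplatin, circles for replicate 1 and squares for replicate 2. Acaca, Stard4, Lss, Srebf2 and Scap show both cisplatin libraries below both vehicle libraries. The squares lie to the right of the circles in both groups in 31 of 36 rows, Acaca, Stard4 and Lss among them.

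By the ranking of libraries, 5 rows lay below in both cisplatin libraries (Lss, Srebf2, Scap, Stard4 and Acaca), 1 lay above (Elovl5) and 30 overlapped. Over all genes tested, 21.2% lay below and 20.6% above. The difference between the group means of log2 CPM exceeded both differences between replicates in 5 of 36 rows (Srebf2, Scap, Stard4, Acaca and Elovl5), against 30.2% of all genes tested.

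The larger difference lay between replicates of a group. The median absolute difference between replicates was 0.57 on the log2 scale for the synthesis rows and the median absolute fold change 0.23, whereas over all genes tested they were 0.33 and 0.28. A replicate difference sets single libraries against each other, whereas a fold change sets group means, which vary less. They are therefore not like measures, and the first tends to be larger without any effect of treatment. Among the roles, only the 6 regulators had a median replicate difference (0.19) below their median absolute fold change (0.23). Replicate 2 was above replicate 1 in both groups in 31 of 36 rows, against 38.2% of all genes tested. It was below in both in 2, Acacb and Elovl5, against 34.2%. Scap, Insig2 and the minus-strand Elovl6 model went opposite ways in the 2 groups. Cisplatin replicate 1 was the lowest library in 25 of 36 rows (31.5% of all genes tested), and vehicle replicate 2 the highest in 24 (29.0%). The widest gaps between replicates were those of Elovl1 (1.43 in vehicle and 0.74 in cisplatin), Idi1 (0.84 and 1.5) and Lss (0.74 and 1.21).

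**Figure D4:**
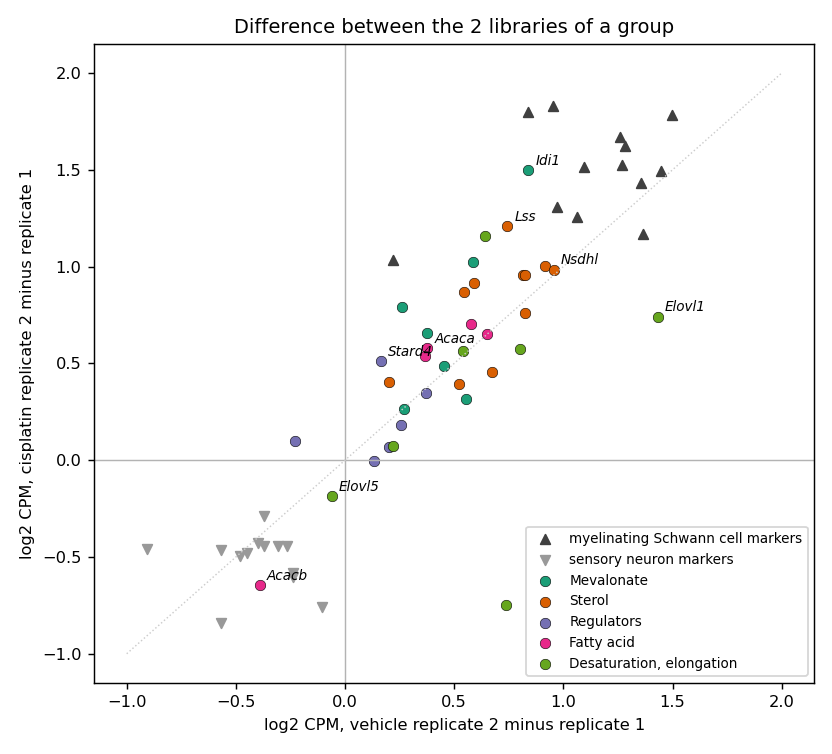
Log2 difference of replicate 2 against replicate 1 in the vehicle libraries (x axis) and in the cisplatin libraries (y axis), 1 point per synthesis gene row, with marker genes of Schwann cells and sensory neurons beside them. Of the 36 rows, 31 lie at the upper right (above 0 on both axes), where all 13 Schwann cell markers lie, and all 13 neuronal markers lie at the lower left.

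The same libraries differed in markers of myelinating Schwann cells. All 13 listed markers were detected in every library, and all 13 were higher in replicate 2 of both groups. Their summed level was 64650 and 164100 CPM in vehicle and 49890 and 142700 CPM in cisplatin. The 13 listed markers of sensory neurons, also detected in every library, were lower in replicate 2 of both groups, with sums of 32910 and 25250 CPM in vehicle and 40430 and 28930 CPM in cisplatin. The sum of the synthesis genes was 16310 and 24570 CPM in vehicle and 11040 and 20320 CPM in cisplatin. Replicate 2 was thus 1.51 and 1.84 times replicate 1 for synthesis genes, 2.54 and 2.86 times for Schwann cell markers, and 0.767 and 0.716 times for neuronal markers. Between the groups, the mean of cisplatin over that of vehicle was 0.767 for synthesis genes, 0.842 for Schwann cell markers and 1.19 for neuronal markers. Fewer cells of a type and less RNA per cell cannot be told apart in whole DRGs. The part of cell makeup in the differences of the synthesis genes was not tested.

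**Figure D5:**
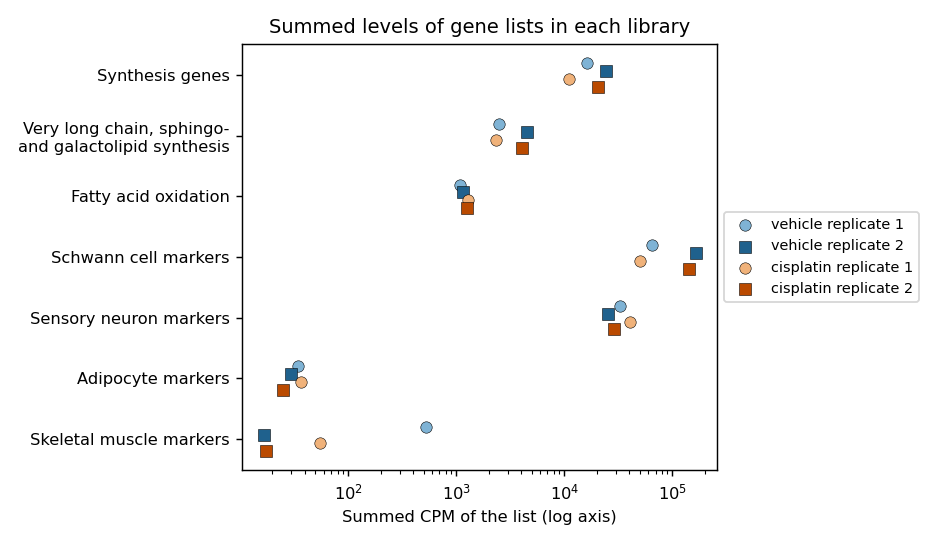
Summed CPM of the synthesis genes, of other lipid lists and of marker lists (log axis) in each library, with blue for vehicle, orange for cisplatin, circles for replicate 1 and squares for replicate 2. Synthesis genes (11040 to 24570 CPM) and Schwann cell markers (49890 to 164100 CPM) are lower in replicate 1 of each group, and neuronal markers (25250 to 40430 CPM) are higher there.

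The role groups did not share this replicate gap to the same extent. Replicate 2 over replicate 1 was 1.56 and 2.09 for the summed desaturases and elongases, 1.59 and 1.71 for the sterol genes, 1.45 and 1.77 for the mevalonate genes, 1.38 and 1.52 for the fatty acid genes, and 1.2 and 1.14 for the regulators. These ratios were not tested against each other.

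Other cell types were checked in the same way. Vehicle replicate 1 held more skeletal muscle RNA, with the 4 detected markers summing to 523 CPM against 16.7 CPM in vehicle replicate 2 and 55.1 and 17.4 CPM in cisplatin. It also held the oligodendrocyte gene Mobp at 39.5 CPM, against 0.748 to 2.19 CPM in the other libraries. The 8 listed markers of adipocytes, which also make fatty acids, summed to 34.3 and 29.6 CPM in vehicle and 36.5 and 25.1 CPM in cisplatin, most of it Lipe. Without Lipe the other 7 summed to 11.3 CPM in vehicle replicate 1 and to 1.57 to 2.95 CPM in the other libraries, with Fabp4 at 7.31 CPM against 0.425 to 0.748 CPM. Adipoq was at 1.56 CPM in vehicle replicate 1 and 0.170 to 0.457 CPM elsewhere, and Ucp1 had 0 counts in every library. The 7 listed markers of satellite glia summed to 620 and 1006 CPM in vehicle and 578 and 909 CPM in cisplatin. Most of it was Glul and Sox10. The list was split, with 4 markers higher in replicate 2 of both groups and 3 lower in both. Markers of fibroblasts and meninges (9 listed) summed to 5820 and 7704 CPM in vehicle and 3144 and 5859 CPM in cisplatin. Most of it was Col1a1, at 4045 and 5312 CPM in vehicle and 1847 and 3766 CPM in cisplatin. This list was split too, with a positive log2 fold change in 4 markers and a negative one in 5. Macrophage markers (11 listed) summed to 68.0 to 85.0 CPM, endothelial markers (6 of 7 found, with Cldn5 at 0) to 93.0 to 132 CPM, and spinal cord and oligodendrocyte markers (6 listed) to 180 to 310 CPM, most of it Slc17a7. Without Slc17a7 the other 5 of the last list summed to 68.2 CPM in vehicle replicate 1 and to 8.86 to 12.5 CPM in the other libraries. Their part in the results was not tested. Without vehicle replicate 1, Acaca stood at -1.28, Stard4 at -0.91 and Lss at -1.38 on the log2 scale. In these genes the groups did not overlap, so leaving out 1 library could hardly turn them. Elovl1 went from 0.42 to -0.11 without that library, and the median of all synthesis rows from -0.16 to -0.36.

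Neighbouring lipid pathways were followed with 6 further lists, and in each of them 0 genes passed edgeR's adjusted threshold. Of 21 genes of sterol transport, storage and turnover (median log2 fold change -0.01), 10 were positive and 11 negative. At an unadjusted p under 0.05 and 1.5-fold, 2 were lower by edgeR, against 5.32% of all genes tested. Lrp1, a lipoprotein receptor, was at 229 and 279 CPM in vehicle and 121 and 177 CPM in cisplatin (-0.77, adjusted p = 0.509). Soat1, which esterifies cholesterol, was at 21.2 and 28.6 CPM in vehicle and 10.1 and 17.6 CPM in cisplatin (-0.84, adjusted p = 0.519). In both genes the groups did not overlap. Over that list 5 genes lay below in both cisplatin libraries and 1 above, against 21.2% and 20.6% of all genes tested.

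Gpam, which starts glycerolipid synthesis, was the closest of the 7 tested triglyceride genes to the threshold (list median -0.05, 3 positive and 4 negative). It was at 68.0 and 65.7 CPM in vehicle and 42.6 and 40.5 CPM in cisplatin, so its replicates lay close together (-0.69 ± 0.17 SE, adjusted p = 0.509). The 14 tested genes of very long-chain, sphingolipid and galactolipid synthesis had a median of 0.06 (8 positive and 6 negative). The 1 of these past the unadjusted threshold (lower, 5.32% of all genes tested) was Sptlc2, a subunit of the enzyme that starts sphingolipid synthesis. It was at 31.9 and 45.7 CPM in vehicle and 21 and 27.3 CPM in cisplatin (-0.68, adjusted p = 0.516). The 9 tested genes of SREBP processing and degradation (median -0.04) and the 11 of the non-sterol isoprenoid branch (median -0.02) had 0 past the unadjusted threshold. Fatty acid oxidation was the list with the most positive median (0.21 over 14 genes, 11 positive and 3 negative), and 7 of the 14 were higher in both cisplatin libraries, against 20.6% of all genes tested, with 0 past the unadjusted threshold.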

How the data were processed

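Whole DRG RNA was measured in 4 libraries, 2 per group, grouped and numbered by their labels. The authors deposited raw counts per gene and FPKM values. The study's methods give Ensembl Rnor_6.0 as the genome, and the submitters' processing notes name HISAT2 2.0.5, StringTie 1.3.3b and featureCounts 1.5.0-p3. Use of strand in counting is not given in the sources used here. In each library the deposited FPKM equals the count divided by gene length and a single constant. Coordinates are those of the deposited tables, except promoters (GRCr8).

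Protein-coding genes kept by edgeR's filterByExpr were normalised with TMM and tested by glmQLFit and glmQLFTest of edgeR 4.0.16 under R 4.3.3, with Benjamini-Hochberg adjustment and calls at an adjusted p under 0.05 and 1.5-fold. Nothing says that the rats of a group came from separate litters, so p-values measure the spread between these libraries. Each standard error is the log2 fold change over the root of its F statistic. DESeq2 1.42.0 and limma 3.58.1 on log2(FPKM + 1) and log2(FPKM + 0.1) were alternatives, and on both scales, more so with + 1, the change of low genes is understated. Also tried were scaling by library size alone or by DESeq2's size factors, other filters, all biotypes, the earlier quasi-likelihood fit, a gene length correction (lowess, span 0.3), a replicate block and leaving out each library. The fits were tested on simulated data. The members, lists and tests were chosen with earlier results of these data known. Every member was named, with values in every library for those past an unadjusted p of 0.05, the 3 highest by FPKM and the largest positive and negative difference of each role. From other lipid lists, genes past an unadjusted p of 0.05 and 1.5-fold were named. Further genes with values were chosen after these were seen. List genes were matched by symbol, or through RefSeq by Ensembl identifier. Pecam1, Mlxipl, Ufd1, Marchf6, Myh2 and Myh4 were not matched. Results for some single genes of the marker lists are left out here.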

Additional observations from a re-analysis of the deposited data

How the results depend on the processing

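Acaca, Stard4 and Lss kept their direction in every alternative, as did 15 of the 36 rows in all (12 negative and 3 positive), while 21 turned in at least 1. In Acaca, Stard4 and Lss the groups did not overlap, so leaving out 1 library could hardly turn their sign. For them those alternatives are given as values and not as support. Of 575 pairs of a row and an alternative, 48 turned sign, 36 of them with a library left out. The 20 rows that turned then had log2 fold changes of Mvk (-0.27 to 0.27), Pmvk (-0.15 to 0.35), Mvd (-0.29 to 0.37), Idi1 (-1.27 to 0.23), Fdps (-0.013 to 0.27), Fdft1 (-0.18 to 0.48), Tm7sf2 (-0.68 to 0.34), Msmo1 (-0.77 to 0.35), Nsdhl (-0.46 to 0.67), Hsd17b7 (-0.68 to 0.24), Ebp (-0.48 to 0.55), Sc5d (-0.78 to 0.12), Dhcr7 (-0.35 to 0.16), Srebf1 (-0.20 to 0.043), Acly (-0.66 to 0.060), Acss2 (-0.46 to 0.27), Acacb (-0.48 to 0.17), Elovl1 (-0.11 to 1.31), Elovl6 (plus strand) (-0.79 to 0.026) and Fads2 (-0.35 to 0.26). With the gene length correction, and with it and the replicate block, Pmvk was at -0.075 and -0.080, Mvd at -0.013 and -0.040, Ebp at -0.11 and -0.14, Srebf1 at 0.081 and 0.083, Acacb at 0.27 and 0.25, and Fasn at 0.083 and 0.079. The cause was not tested.

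Over all genes tested, edgeR called 0 higher and 1 lower. Of the alternatives, no filter gave 1 higher, at least 10 counts in every library 1 higher, DESeq2 on all protein-coding genes 36 higher and 63 lower, and limma 2 and 2 on log2(FPKM + 1) and 0 lower on log2(FPKM + 0.1). With a library left out, 0 to 4 were called higher and 2 to 5 lower. In these fits 1 library stands against 2 and is assumed to vary like the other group, so their counts are given as values and not as support. The median of the regulators ran from -0.33 to -0.17 with a library left out, and was -0.33 without vehicle replicate 1.

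Same-numbered libraries are different rats and only share a number. Over 14719 genes the gap between replicates in vehicle and in cisplatin had a Pearson's r of 0.44 and a Spearman's rho of 0.57. With the number as a replicate block, 529 genes were called higher (3.59%) and 1136 lower (7.72%; 277 and 805 with the length correction), and 3 synthesis genes were called lower with either: Acaca (-1.14, adjusted p = 0.000348 by edgeR with the block), Lss (-1.14, adjusted p = 0.00063) and Stard4 (-0.86, adjusted p = 0.00342). At the unadjusted threshold the block gave 4 synthesis genes lower (10% of all genes tested). With the block alone, both counts out of 36 rows are near the shares over all genes. The block has no basis in the design, takes up the replicate gap seen in these data and leaves little to estimate the spread from. Its adjusted p-values are therefore given as values and not as support. Depth limits the precision most for the minus-strand Elovl6 model, at 6 to 16 counts a library.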
